A study of Mus musculus with 4 samples.

Results

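Cytochrome P450 enzymes of families 1 to 4 were followed in mouse small-intestinal organoids given an agonist of the liver X receptors (LXR). The members are all genes whose symbol starts with Cyp, a family number from 1 to 4, a subfamily letter and a gene number, without pseudogenes. They numbered 80 of the 30284 genes in the files, with 3 in family 1, 48 in family 2, 9 in family 3 and 20 in family 4. Crypts of 2 male C57BL/6J mice, labelled as 9 weeks old at the start of a DSS course that no other label mentions, were grown in Matrigel. Each mouse gave 1 culture with the vehicle DMSO and 1 with 2 µM GW3965, an LXR agonist, and RNA was taken after 6 h. Each of the 2 groups therefore held 2 libraries, 1 per mouse, and both groups shared strain, sex, age and medium. The extraction text speaks of colon, whereas tissue and growth labels name small intestine.

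P450 enzymes are haem proteins of the endoplasmic reticulum that insert an oxygen atom into lipophilic substrates, with electrons passed on by the reductase Por. Families 1 to 3 act mainly on drugs, dietary compounds and steroids, and several of their genes are induced through the aryl hydrocarbon receptor (Cyp1a1), the pregnane X receptor (Cyp3a11) or the constitutive androstane receptor (Cyp2b10). Family 4 enzymes hydroxylate the far end of fatty acids and eicosanoids, and the Cyp4a genes are known targets of the fatty acid receptor Ppara. The small intestine is a main site of P450 metabolism outside the liver.

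The haem iron of a P450 is held by a cysteine in a conserved stretch of 10 residues with phenylalanine first, then glycine, cysteine and glycine at fixed spacing. A coding stretch of 30 bases with this pattern was found in 76 of the 80 members in the GENCODE M21 transcripts of GRCm38, and 4 members (Cyp2c40, Cyp2s1, Cyp3a59 and Cyp4a31) had no match in the transcript read. The stretches below, 5′ to 3′ on the coding strand, are shown because they place the members described most often side by side and show which expressed copies are alike; capitals mark the cysteine codon.
Cyp3a13: tttgggagtggaccaaggaacTGCattggc
Cyp3a11: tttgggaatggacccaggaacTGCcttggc
Cyp2c65: ttctcaacaggaaaacggattTGTgtggga
Cyp2c66: ttctcaacaggaaaacggattTGTgtggga
Cyp2c55: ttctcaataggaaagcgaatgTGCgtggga
Cyp2b10: ttctcaacaggaaagcgcattTGTcttggt
Cyp1a1: tttggtttgggcaagcgaaagTGCatcgga
Cyp4f14: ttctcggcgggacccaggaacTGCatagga
Cyp2w1: ttctccgctggtcgccgggtcTGCgttggg
Cyp2c65 and Cyp2c66 share all 30 bases here. The cysteine codon was TGC in 46 members and TGT in 30. The stretch lay within 1 exon in all 3 family 1 and all 8 family 3 genes that hold it, as in Cyp1a1 (chr9:57702664-57702693, plus strand) and Cyp3a13 (chr5:137895267-137895296, minus strand). It was split by an intron in all 46 family 2 and all 19 family 4 genes with a match, as in Cyp2w1 (chr5:139356738-139356865, plus strand).

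The 4 libraries held 16572359 to 19486547 estimated counts, of which 16430575 to 19352855 were assigned to annotated genes, and the members held 0.125 to 0.169% of the assigned counts. Levels are given as CPM, counts scaled to the size of the library, or as TPM, which are also divided by transcript length and allow genes to be compared. Marker genes matched an epithelial small-intestinal culture: 11 enterocyte markers summed to 6126 to 7623 CPM and 5 Paneth cell markers to 9235 to 11590 CPM. The 5 colon markers in the files summed to 28.4 to 32.7 CPM and 7 hepatocyte markers to 2.36 to 3.08 CPM. The GW3965 library of mouse 1 stood apart in its mitochondrial share (14.0% of counts against 7.60 to 9.43% in the others) and in the sum of 12 immune markers (190.8 CPM against 75.9 to 94.9 CPM). LXR targets checked the labels: Abca1, the cholesterol exporter, was at 0.462 and 1.75 CPM in the DMSO libraries and 42.8 and 60.4 CPM in the GW3965 libraries of mouse 1 and mouse 2. In edgeR's quasi-likelihood test its Benjamini-Hochberg adjusted p was 0.00134.

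In DMSO the summed level of the members was dominated by a small number of genes. Of the 80 members, 19 reached 1 TPM in every library and 13 had a mean DMSO level of at least 10 TPM, while 17 had no count in any library. A count of 0 allows up to 3 counts, or 0.155 to 0.183 CPM depending on the library. Cyp3a13, a steroid and drug hydroxylase of the intestine, led with 184.2 TPM in mouse 1 and 279.6 TPM in mouse 2. Cyp2c65, a Cyp2c enzyme that oxidises arachidonic acid, followed with 108.9 and 92.5 TPM. Cyp1a1, the inducible oxidase of aromatic hydrocarbons, stood at 39.6 and 54.4 TPM. Cyp3a13 and Cyp2c65 were first and second in both mice, and the DMSO values of each lay clear of those of the next gene.

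From Cyp1a1 down the order was less certain. Cyp1a1 followed by its mean, but Cyp4f16 was higher in DMSO of mouse 1 and Cyp4f14 in DMSO of mouse 2. The fatty acid hydroxylase Cyp4f14 had 30.6 and 54.9 TPM in the DMSO libraries of mouse 1 and mouse 2, and its relative Cyp4f16 had 46.4 and 36.0 TPM. In these DMSO libraries the main coding transcript of Cyp4f16 held 43.8 and 46.2% of its TPM. The place of Cyp4f16 therefore rests in part on transcripts not annotated as coding. Cyp2c66 had 36.7 and 29.1 TPM, and Cyp2s1, an extrahepatic P450, had 32.7 and 31.2 TPM. The ranges of Cyp1a1, Cyp4f14, Cyp4f16 and Cyp2c66 each overlapped that of the next gene in the order, and Cyp2s1 lay clear of the gene after it. Cyp2b10, Cyp2j6 (an arachidonic acid epoxygenase), Cyp2d26, Cyp4f13, Cyp4f40 and Cyp2c55 had mean DMSO levels of 14.1 to 21.7 TPM. Cyp4v3, Cyp3a25, Cyp2c68, Cyp4b1, Cyp2c29 and Cyp3a11 had means of 2.78 to 9.60 TPM, and Cyp2w1 was the 20th gene with 0.836 and 1.22 TPM. Of the 19 neighbouring pairs among these 20 genes, 7 had DMSO values that did not overlap.

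**Figure D1:**
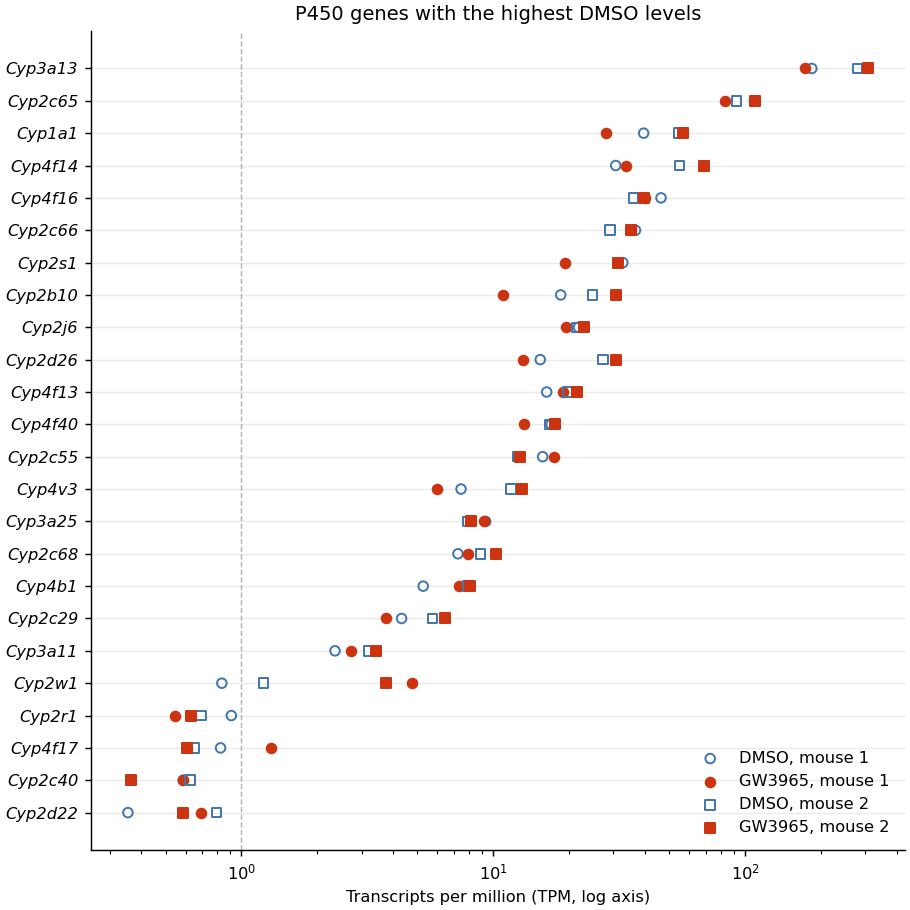
TPM (log axis) of the members with the highest DMSO levels, 1 row per gene. Open symbols show DMSO and filled symbols GW3965, with circles for mouse 1 and squares for mouse 2. The dashed line is at 1 TPM. Cyp3a13 lies to the right of every other gene, and Cyp2w1 is the row where both filled symbols lie well to the right of both open ones (4.77 and 3.76 against 0.836 and 1.22 TPM).

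By subfamily, the largest shares belonged to Cyp3a, Cyp2c and Cyp4f. Cyp3a genes held 31.3% of the members' summed TPM in DMSO of mouse 1 and 38.6% in mouse 2, against 33.4 and 37.7% with GW3965. Cyp2c genes held 27.7 and 19.8% in DMSO and 26.7 and 20.7% with GW3965, and Cyp4f genes 17.8 and 17.1% in DMSO and 19.4 and 17.7% with GW3965. The shares of the 2 treatments overlapped in each of these 3 subfamilies. The 5 highest members of a library together held 65.9 to 68.8% of the members' summed TPM. This sum leaves out P450 genes of family 5 and above.

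**Figure D2:**
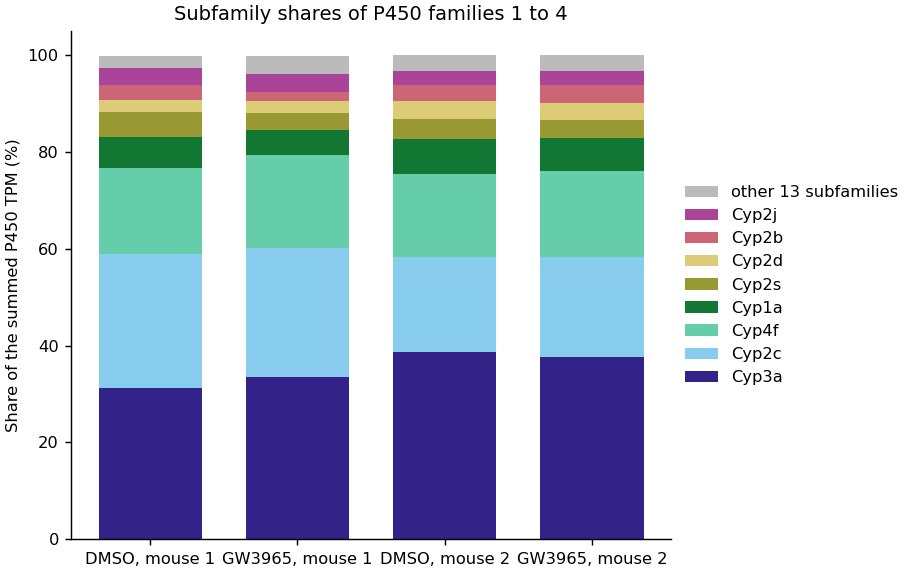
Share (%) of the members' summed TPM held by each subfamily, 1 stacked bar per library. Cyp3a and Cyp2c are the largest 2 blocks in every bar, and the Cyp3a block is larger in both mouse 2 bars (38.6 and 37.7%) than in both mouse 1 bars (31.3 and 33.4%).

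By position, 71 members fell into 8 clusters in which neighbours lie within 1000000 bases, and 9 stood alone. The largest cluster was Cyp2c on chr19:39007019-40187333, with 14 members, 6 of them high enough to test, and Cyp2c65 gave 62.4% of its DMSO TPM. Cyp3a13 (chr5:137892932-137921619) stands alone, apart from the 8 Cyp3a genes at chr5:145345279-146113287, which together had 11.6 TPM, 74.3% of it from Cyp3a25. The Cyp2j cluster on chromosome 4 drew 97.4% of its DMSO TPM from Cyp2j6, and the Cyp2d cluster on chromosome 15 drew 96.7% from Cyp2d26. The Cyp4f cluster on chromosome 17 was spread more evenly, with 6 of 8 members tested and 35.6% from its leading gene Cyp4f14.

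Copies that resemble each other share reads, which limits how far levels within a cluster can be told apart. Of the 31-base stretches in its transcripts, Cyp2c65 shared 34.0% with other genes, mainly Cyp2c66. The share was 62.0% for Cyp2c68, 44.0% for Cyp3a25, 32.4% for Cyp3a11 and 26.1% for Cyp4f16, so the levels of these genes are uncertain. Cyp3a13 (0.21%), Cyp2s1 (0.44%) and Cyp2c55 (0.66%) shared next to nothing, and Cyp2w1, Cyp1b1 and Cyp2r1 shared none. Sums over a subfamily do not depend on how reads were divided within it. Cyp4v3 overlaps the gene Gm45753 on the same strand, so its values may hold reads of that gene.

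GW3965 was then compared with DMSO. A low-count filter kept 29 members, and the other 51 (17 at 0 throughout and 34 with few counts) were not tested. With counts in DMSO of mouse 1 and mouse 2 and then in GW3965 of mouse 1 and mouse 2, the lowest tested members were Cyp2r1, the vitamin D 25-hydroxylase (12, 12, 9 and 13), Cyp2j9 (8, 17, 11 and 11) and Cyp4f39 (13, 13, 7 and 15). Just outside were Cyp2e1, the ethanol oxidase (4, 8, 5 and 13), Cyp4a31 (2, 5, 10 and 10) and Cyp4f18 (2, 11, 7 and 6). None of the 29 members passed an adjusted p of 0.05 in edgeR's quasi-likelihood test, against 0.0588% of all 13602 genes tested. At an unadjusted p under 0.05 there was 1 member of 29, Cyp2w1, against 1.05% of all genes. With the mouse as a block, edgeR called 1 member, against 0.353% of all genes (0.228% as higher). DESeq2 called 1, against 0.147% (0.125% as higher), and limma-voom called none, against 0.147% (0.103% as higher). The called member was Cyp2w1, which was higher with GW3965.

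Cyp2w1, an orphan P450 known from fetal gut and colon tumours, was low in DMSO and several times higher with GW3965. It had 20 counts (1.03 CPM) in DMSO and 114 counts (6.94 CPM) with GW3965 in mouse 1, and 30 counts (1.59 CPM) in DMSO and 88 counts (4.62 CPM) with GW3965 in mouse 2. Both GW3965 libraries lay above both DMSO libraries, by 6.76-fold within mouse 1 and 2.90-fold within mouse 2, and the difference between the mice was not tested. Group means were 1.31 ± 0.398 CPM in DMSO and 5.78 ± 1.65 CPM with GW3965 (SD, n = 2 each). The log2 fold change was 2.14 ± 0.38 (SE), with a 95% interval from 1.28 to 2.99. Its adjusted p was 0.198 in edgeR's quasi-likelihood test without a block and 5.88e-05 with the mouse as a block, where the log2 fold change was 2.12. DESeq2 gave an adjusted p of 0.00634 without a block. By unadjusted p, Cyp2w1 ranked 17th of all genes without the block, 25th with it and 15th in DESeq2.

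The call on Cyp2w1 thus depended on the model, while its direction did not. The blocked fit has 1 residual degree of freedom and an infinite prior, so its p reflects the spread of genes of similar level more than that of Cyp2w1 itself. Without the DMSO library of mouse 2 edgeR called Cyp2w1 (adjusted p = 0.00925), against 0.383% of all genes (0.234% as higher). Without the GW3965 library of mouse 2 it did so too (adjusted p = 0.0364), against 0.595% (0.404% as higher). Leaving out the GW3965 library of mouse 1, which had the high immune and mitochondrial values, gave a log2 fold change of 1.82 (edgeR adjusted p = 0.0557); the part of those values in the result was not tested. Cyp2w1 has 1 transcript, no overlapping gene and no shared 31-base stretch, at chr5:139352617-139357033 on the plus strand. In bulk RNA, more cells of a type and more RNA per cell cannot be told apart for this or any other member.

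**Figure D3:**
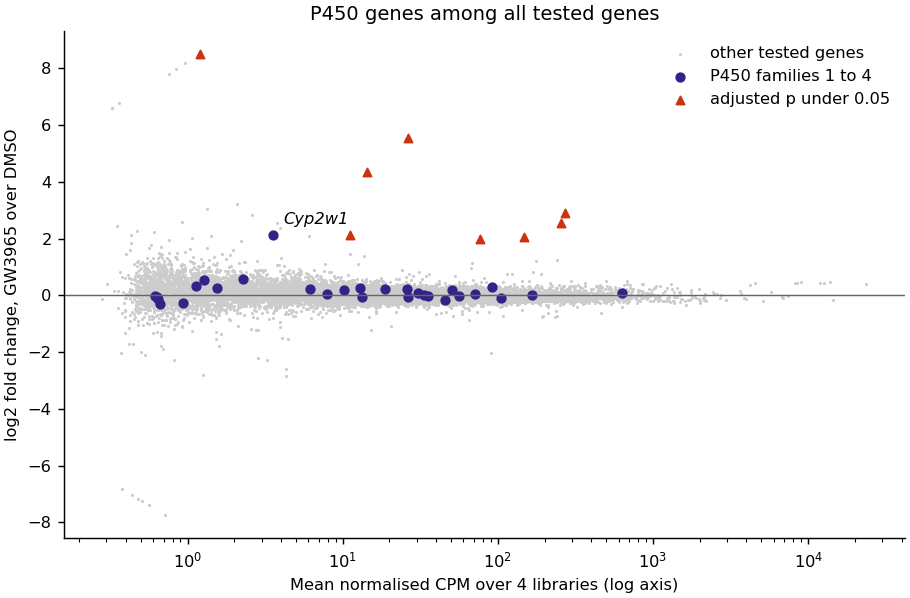
log2 fold change of GW3965 over DMSO against mean normalised CPM (log axis) for all 13602 tested genes, with P450 members as dark points and genes past an adjusted p of 0.05 as triangles. The 28 other tested members lie between -0.29 and 0.57, and Cyp2w1 stands at 2.14.

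The 250 bases before the RefSeq start of Cyp2w1 (GRCm38.p6, chr5:139352366-139352615, plus strand) are printed because this gene had the largest log2 fold change of the tested members. Capitals mark the only match to GCGTG, the core of the response element bound by the aryl hydrocarbon receptor, which reads CACGC on this strand.
Cyp2w1: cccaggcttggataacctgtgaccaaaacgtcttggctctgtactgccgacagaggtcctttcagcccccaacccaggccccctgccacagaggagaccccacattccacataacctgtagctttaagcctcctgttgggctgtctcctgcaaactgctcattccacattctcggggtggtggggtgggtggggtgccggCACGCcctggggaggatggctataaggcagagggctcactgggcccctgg
The window held no AGGTCA, the half-site of many nuclear receptors, on either strand, and no TATAAA on the coding strand. RefSeq windows were found for 65 of the 80 members. These members had 72 windows, since some genes have more than 1. GCGTG on either strand occurred in 13 of the 72 windows (12 members), and in 28.2% of all 32851 windows. AGGTCA on either strand occurred in 17 of the 72 windows (16 members), and in 14.0% of all windows. DR4, a direct repeat of that half-site with 4 bases between and the arrangement LXR is known to bind, occurred on either strand in no member and in 0.015% of windows. TATAAA on the coding strand occurred in 19 of the 72 windows (19 members, among them Cyp1a1, Cyp2c55, Cyp2c65, Cyp2c66 and Cyp3a11). It occurred in 7.59% of all windows. These are matches of letters in a short window and no measure of binding.

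Family 1 genes, the readout of the aryl hydrocarbon receptor, did not pass the test. Cyp1a1 was at 89.0 and 129.5 CPM in DMSO and 74.7 and 127.9 CPM with GW3965 in mouse 1 and mouse 2. The groups overlapped, with a log2 fold change of -0.11 ± 0.29 and a 95% interval from -0.75 to 0.54. Cyp1b1, which metabolises estrogens and hydrocarbons, was at 0.668 and 1.38 CPM in DMSO and 0.853 and 0.839 CPM with GW3965 (-0.27 ± 0.52). Cyp1a2, abundant in liver, had 3, 2, 0 and 3 counts in the order used above and was not tested.

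The genes known as readouts of the pregnane X and constitutive androstane receptors likewise did not pass. Cyp3a13 was at 471.8 and 757.3 CPM in DMSO and 526.5 and 785.4 CPM with GW3965, higher in mouse 2 than in mouse 1 in both treatments. Its log2 fold change was 0.09 ± 0.31, with a 95% interval from -0.59 to 0.78. Cyp3a11 was at 4.67 and 6.79 CPM in DMSO and 6.46 and 6.82 CPM with GW3965 (0.21 ± 0.28). The groups overlapped for both Cyp3a genes. Cyp2b10 was at 29.7 and 42.1 CPM in DMSO and 20.7 and 49.2 CPM with GW3965, lower with GW3965 in mouse 1 and higher in mouse 2. Cyp2c55 went the other way, with 26.3 and 22.2 CPM in DMSO and 34.7 and 21.4 CPM with GW3965. Neither direction held in both mice.

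The other Cyp2 genes with high levels were close between treatments. Cyp2c65 was at 175.7 and 157.7 CPM in DMSO and 158.9 and 176.1 CPM with GW3965, with a 95% interval of the log2 fold change from -0.47 to 0.48. Cyp2j6 was at 68.9 and 71.9 CPM in DMSO and 72.6 and 72.7 CPM with GW3965 (0.05 ± 0.18). Cyp2s1 was at 45.4 and 51.0 CPM in DMSO and 38.3 and 47.4 CPM with GW3965 (-0.17 ± 0.19). A change of the size seen in Cyp2w1 lies outside the intervals of these 3 genes.

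Among fatty acid hydroxylases, Cyp4f14 was at 57.3 and 108.6 CPM in DMSO and 74.6 and 128.7 CPM with GW3965. It was higher with GW3965 within each mouse, but the groups overlapped (0.29 ± 0.33). Cyp4f13 was at 16.0 and 18.5 CPM in DMSO and 19.2 and 21.2 CPM with GW3965, so its groups did not overlap (0.23 ± 0.20), and it did not pass the test. Cyp4x1, a low P450 best known from brain, had 1.44 and 2.23 CPM in DMSO and 3.47 and 1.99 CPM with GW3965, high in the GW3965 library of mouse 1 alone (0.57 ± 0.42). The 8 Cyp4a genes were near the floor: together they had 6 and 12 counts in DMSO and 12 and 18 with GW3965, and no Cyp4a gene exceeded 10 counts in a library. Their summed log2 fold change was 0.83 ± 0.58 and did not pass. Ppara itself, their known activator, rose from 4.31 to 16.0 CPM in mouse 1 and from 4.08 to 20.4 CPM in mouse 2 (2.12 ± 0.24, edgeR adjusted p = 0.0142).

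Over the 29 tested members, 18 log2 fold changes were positive and 11 negative, with a median of 0.06 against 0.00 over all genes. The sign was positive within both mice for 11 members and negative within both for 3 (Cyp1a1, Cyp2s1 and Cyp4f40). No share over all genes is given beside these counts of signs, so they are not read as a lean of the members. Both GW3965 libraries lay above both DMSO libraries for 3 members (Cyp2w1, Cyp4f13 and Cyp2j6), against 9.28% of all genes tested, and below for none, against 9.18%; a share of 3 in 29 is near that background. For 18 members the 95% interval lay within 1 log2 unit of no change, and the rest were mostly low genes with wider intervals.

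**Figure D4:**
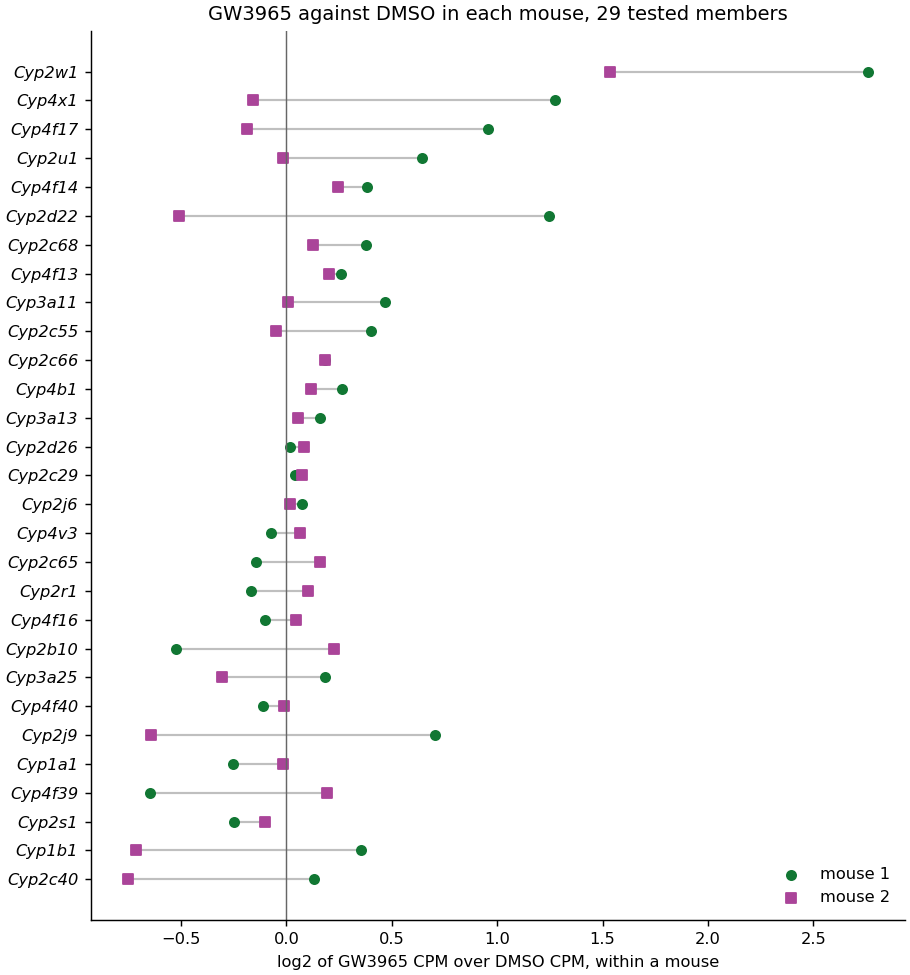
log2 of GW3965 CPM over DMSO CPM within mouse 1 (circles) and mouse 2 (squares) for the 29 tested members, ordered by fitted log2 fold change, with a line joining the mice. Only Cyp2w1 has both points above 1 (2.76 and 1.54). Points lie on both sides of 0 for high genes such as Cyp2c65 and Cyp2b10, and for low genes such as Cyp2d22 and Cyp4x1.

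The mouse separated members more often than the treatment did. Both mouse 2 libraries lay above both mouse 1 libraries for 14 of 29 members, against 21.0% of all genes, and below for 3 (Cyp2c55, Cyp2c66 and Cyp4f17), against 20.2%. Averaged over treatments, the log2 ratio of mouse 2 to mouse 1 was largest among those 14 for Cyp2d26 (0.94) and Cyp2b10 (0.86). Next came Cyp4f14 (0.85), Cyp4v3 (0.81), Cyp1a1 (0.65) and Cyp3a13 (0.63). For the 3 lower members it was -0.89 for the low gene Cyp4f17, -0.49 for Cyp2c55 and -0.24 for Cyp2c66. With 1 culture per mouse and treatment, mouse and culture cannot be told apart, and no test between the mice is given. Marker sums of several cell types also separated the mice, given here for DMSO and then GW3965. Enterocyte markers summed to 7328 and 7623 CPM in mouse 2 against 6126 and 6965 CPM in mouse 1, goblet markers to 2836 and 3312 against 2223 and 2642 CPM, and enteroendocrine markers to 924 and 988 against 738 and 779 CPM. Tuft cell markers were also higher in mouse 2 in both treatments (28.95 against 27.22 CPM in DMSO). The low colon sums (32.7 and 32.3 against 29.4 and 28.4 CPM) and hepatocyte sums (3.08 and 2.78 against 2.36 and 2.68 CPM) were higher in mouse 2 too. Paneth cell markers were lower in mouse 2, at 9235 and 9519 against 10690 and 11590 CPM. Immune markers, at 94.2 and 75.9 against 94.9 and 190.8 CPM, were close in DMSO and high in the GW3965 library of mouse 1 alone. Stem and crypt markers overlapped between the mice, as did mesenchymal and endothelial markers. Of all genes tested singly, 21.0% were higher and 20.2% lower in both mouse 2 libraries. The part of these sums in the P450 levels was not tested.

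**Figure D5:**
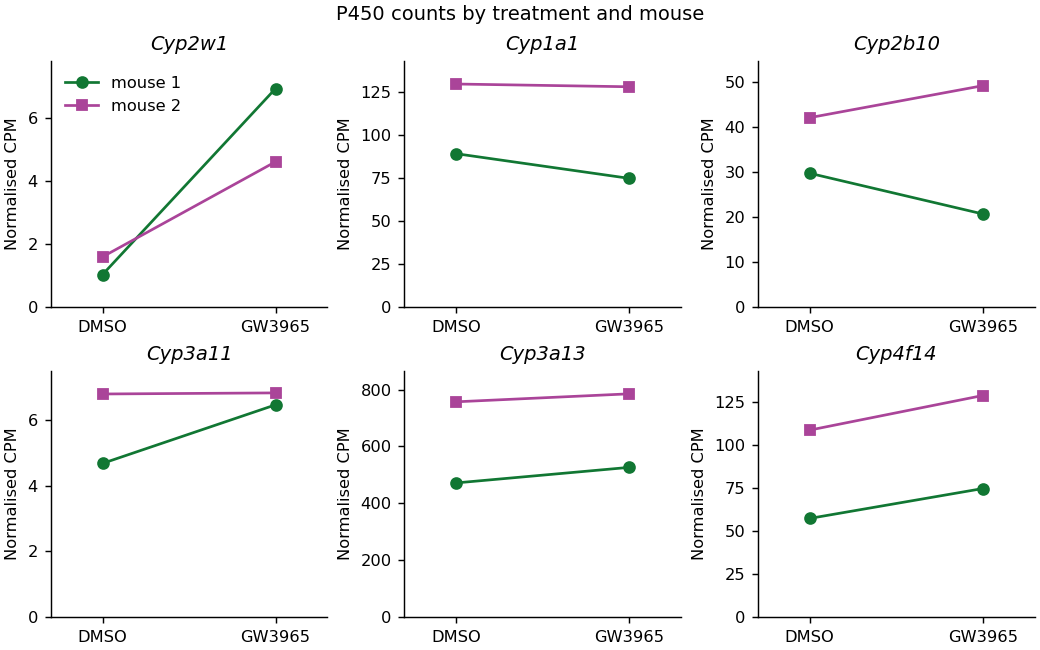
Normalised CPM in DMSO and GW3965 for 6 P450 genes, with circles joined for mouse 1 and squares joined for mouse 2, each axis starting at 0. Cyp2w1 slopes up in both mice, while for Cyp1a1, Cyp3a13 and Cyp4f14 the gap between the mice is wider than the slope between treatments.

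Sums over subfamilies were not independent of the gene tests, since several, such as Cyp2w, hold 1 member and others follow 1 leading gene. Of 21 subfamilies, 16 could be tested, and none passed in edgeR without a block, against 0.0589% of the 13589 features tested. With the mouse as a block the single-gene subfamily Cyp2w passed, against 0.353% of these features. The Cyp3a sum was at 489.9 and 778.4 CPM in DMSO and 547.8 and 803.8 CPM with GW3965, and the Cyp2c sum at 270.9 and 246.6 CPM in DMSO and 273.0 and 271.7 CPM with GW3965. The Cyp4f sum was at 160.2 and 212.4 CPM in DMSO and 176.1 and 236.5 CPM with GW3965. The treatments overlapped for Cyp3a and Cyp4f, while both GW3965 values of Cyp2c lay just above both DMSO values. Among the tested sums Cyp2j, Cyp4a and Cyp2w lay the same way, and 9.28% of all genes tested singly did so. In TPM the Cyp2c sums overlapped, with 173.7 and 149.5 in DMSO and 148.3 and 174.8 with GW3965. Of 47 member transcripts tested, none passed in edgeR with or without the block, and neither did any of all 32357 transcripts (0.0%). Hence this test cannot show whether 1 isoform carries a change. Only the transcript of Cyp2w1 had an unadjusted p under 0.05 without the block. Cyp2w1 has 1 transcript, so its gene and transcript tests used the same counts. With the block its unadjusted edgeR p was 1.08e-07 as a gene and 0.0256 as a transcript. The blocked call thus depended on the other features in the fit. Cyp2c66 had a coding transcript with 50.5 to 60.0% of its TPM and a transcript annotated for nonsense-mediated decay with the rest. Cyp2s1 was split between 2 coding transcripts, with 45.9 to 53.2% and 34.7 to 48.9% of its TPM. The main coding transcript held 41.9 to 46.2% of the TPM of Cyp4f16 and 35.3 to 52.4% of that of Cyp4f13. Much of the rest of both genes was in transcripts annotated as retained intron or for nonsense-mediated decay.

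The genes that regulate and serve the P450 enzymes were mostly close between treatments. Of 10 genes of the aryl hydrocarbon receptor pathway none passed, and the receptor Ahr was at 28.3 and 30.3 CPM in DMSO and 24.9 and 36.9 CPM with GW3965. None of 21 tested genes tied to the pregnane X and constitutive androstane receptors passed, with a median log2 fold change of 0.10. In that list the pregnane X receptor Nr1i2 was at 57.9 and 47.8 CPM in DMSO and 59.7 and 54.2 CPM with GW3965, and the exporter Abcc2 at 318.6 and 327.3 CPM in DMSO and 412.7 and 397.2 CPM with GW3965. The receptors Ahr and Nr1i2 were named after their values were seen. Of 17 tested nuclear receptors and related factors, Ppara alone passed. All 17 genes of electron supply and haem synthesis were tested and none passed, and Fech, which inserts iron into haem, had 26.3 and 24.9 CPM in DMSO and 21.0 and 23.8 CPM with GW3965.

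Related enzymes outside the members showed few calls. Of 21 P450 genes of family 5 and above, 5 were tested and none passed, and the bile acid enzymes Cyp7a1, Cyp7b1 and Cyp8b1 had no count. Cyp51, the lanosterol demethylase of cholesterol synthesis, had 270.8 and 330.5 CPM in DMSO and 149.9 and 216.4 CPM with GW3965 (-0.71 ± 0.26), below DMSO in both mice without passing the adjusted threshold. Of 34 tested conjugation enzymes none passed without the block. With it the glucuronosyltransferase Ugt1a6b was called lower, with 14 and 29 counts in DMSO and 0 in both GW3965 libraries. Its edgeR adjusted p was 0.22 without the block and 3.82e-05 with it. Genes of the Ugt1a locus share exons, so these counts are uncertain. None of 12 tested arachidonic acid enzymes outside the P450 families passed.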

How the data were processed

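Poly-A RNA of 4 libraries (2 DMSO, 2 GW3965) was read as single-end 50 bp reads, per the labels' protocols. The submitters' processing notes name kallisto, FastQC (no versions), CASAVA 1.7 and mm10. Each library's file, deposited by the authors, gives estimated counts (not normalised) and TPM for every transcript, per the file headers. A deposited series-wide table holds the same counts rounded to whole numbers, and a second table deposited by the authors holds log2 CPM, with no scaling stated. The planned test assumed counts by gene in the series-wide table; since rows there are transcripts, estimated counts were summed per gene and rounded. The annotation release and the strand setting of the counting are not given in the sources. Of 88198 transcripts, 86119 (97.6%) matched GENCODE M21; the unmatched held 0.69 to 0.85% of counts and were left out.

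The quasi-likelihood test of edgeR 4.0.16 (R 4.3.3, TMM scaling, filterByExpr) was run on the 4 libraries without a block. Benjamini-Hochberg adjustment covered every tested gene, with a threshold of 0.05. DESeq2 1.42.0, limma 3.58.1 and a block by mouse were alternatives. The labels tie equal numbers to 1 mouse, which pairs the libraries; their deviations from group means correlated at 0.093. The script was tested on simulated counts. The limits given for a count of 0 cover counting error only, since reads carry no molecular identifiers. Standard errors, 95% intervals and p-values come from the edgeR fit and include the spread between the 2 cultures per group. These cultures come from different mice, so without a block a difference between mice counts as spread. That fit has 2 residual and 7.78 prior degrees of freedom, so the spread is largely drawn from other genes. Members, gene lists and tests were chosen with earlier results of these data known. Named members are those past the threshold, the 20 with the highest DMSO TPM, the 6 with the smallest p, all of family 1, Cyp2w1, Cyp3a11, Cyp2c55 and the 3 on each side of the low-count filter; of each list, called genes and up to 3 with the smallest p. Members outside this rule (such as Cyp2d22) were named after their values were seen. Promoters are from RefSeq (GRCm38.p6).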

Additional observations from a re-analysis of the deposited data

How the results depend on the processing

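With the mouse (replicate) as a block 1 member was called, Cyp2w1, and it changed no other member's call. DESeq2 also called 1 member, and leaving out 1 library gave 0 to 1. Among subfamily sums 1 was called with the replicate block, 1 by DESeq2 and 0 to 1 with 1 library left out. Pathway lists had 1 call, 2 with the replicate block, 2 in limma-voom and 1 to 3 with 1 library left out. No member transcript was called under any alternative run. Cyp2w1 was past the threshold without the DMSO (edgeR adjusted p 0.00925) or GW3965 library (0.0364) of mouse 2, and not without the DMSO (0.261) or GW3965 library (0.0557) of mouse 1; its log2 fold change ranged from 1.64 to 2.48 over all alternatives. A lone library is assumed to vary like the other group. Of 302 values of 26 named members under alternatives, 259 kept direction and call.

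The members whose sign reversed were all among those not called, and the cause was not tested. The values that reversed reached -0.507 for Cyp2d26 without the GW3965 library of mouse 2 and 0.585 for Cyp2j9 without the DMSO library of mouse 2; Cyp4f17 went from 0.52 to -0.311 without the GW3965 library of mouse 1. On log2(TPM + 0.5) they were Cyp2c29 -0.015, Cyp2c65 -0.075, Cyp2d26 -0.03, Cyp2j6 -0.036, Cyp3a25 0.00985 and Cyp4v3 -0.078. Without a filter Cyp2c65 was -0.00556. In limma-voom Cyp2j9 was 0.031 and Cyp4v3 -0.00049, and with the replicate block Cyp4v3 was -0.00288. With 1 library left out the ranges were Cyp1a1 -0.549 to 0.228, Cyp1b1 -0.699 to 0.333, Cyp2b10 -0.796 to 0.455, Cyp2c29 -0.218 to 0.314, Cyp2c55 -0.179 to 0.517, Cyp2c65 -0.074 to 0.088, Cyp2d26 -0.507 to 0.586, Cyp2j9 -0.528 to 0.585, Cyp2r1 -0.191 to 0.122, Cyp3a11 -0.03 to 0.501, Cyp3a13 -0.223 to 0.471, Cyp3a25 -0.255 to 0.13, Cyp4b1 -0.033 to 0.431, Cyp4f14 -0.152 to 0.824, Cyp4f16 -0.075 to 0.018, Cyp4f17 -0.311 to 1.07, Cyp4f39 -0.662 to 0.212, Cyp4f40 -0.144 to 0.022 and Cyp4v3 -0.488 to 0.427. Depth limits the 51 untested members, none above 30 counts over the 4 libraries.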

Other observations

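The authors' deposited table of log2 CPM lists 17 of the 80 members among 8524 gene symbols. In these 17 the difference of GW3965 minus DMSO in the authors' deposited table lay within 0.161 log2 units of that recomputed from the estimated counts. The sign differed for Cyp2b10 (0.012 from the authors, -0.149 recomputed) and Cyp4v3 (0.039 from the authors, -0.004 recomputed).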
